A study of Mus musculus with 3 samples.

Results

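Protamine-rich cells of these mouse testis libraries were picked out by transcripts of the proteins that pack the sperm nucleus. A cell was taken when Prm1, Prm2, Tnp1 and Tnp2 together made up at least 1% of its UMIs, the molecular tags that count captured RNA molecules. It also had to hold no UMI of Ptprc, the general leukocyte gene, and under 0.5% of UMIs in Cyp11a1, Cyp17a1 and Hsd3b6, which make steroids in Leydig cells. Barcodes under 500 UMIs or 300 genes, or with over 20% of UMIs from mitochondrial genes, were left aside. The rule found 57 cells in the dEXO library, 20 in the EXO library and 8 in the PBS library, 85 of 24252 kept cells in all. The 4 genes that chose the cells are described below and support nothing.

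All mice had received busulfan, an alkylating drug that destroys dividing germ cells and leaves the testis without sperm. The dEXO group was then injected with blood exosomes (small membrane vesicles) of mice whose intestinal microbiota was imbalanced, the EXO group with blood exosomes of wild-type mice, and the PBS group with the saline vehicle. There was 1 library per group, made with droplet 3' chemistry, so each difference below lies between 3 libraries, has no replicate check and carries no p-value. Intervals are 95% intervals that cover counting error only, and the cells of a library are not replicates of its treatment. Strain, age, the times of injection and sampling, and the number of animals pooled are not given in the sources used here.

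After meiosis a round spermatid builds its acrosome and flagellum and then elongates while its nucleus is compacted. Histones are first replaced by transition proteins (Tnp1, Tnp2) and then by protamines (Prm1, Prm2), small arginine-rich proteins that close the DNA to transcription. The messages are therefore made early, stored bound to proteins, and translated later, so their RNA marks the step from round to elongating spermatid.

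The libraries held 9119 (dEXO), 9862 (EXO) and 5271 (PBS) kept cells. The protamine-rich cells summed to 624590 UMIs in dEXO, 274652 in EXO and 275713 in PBS. Their median depth was 2172 UMIs in dEXO, 1895.5 in EXO and 22355 in PBS, and their ranges were 570 to 74468, 537 to 128163 and 608 to 87611 UMIs. The deepest cell gave 11.9% of the summed UMIs in dEXO, 46.7% in EXO and 31.8% in PBS, so single cells weigh heavily in the EXO and PBS sums. Pairs of libraries shared between 15 and 17 barcodes among kept cells, and none of these was protamine-rich.

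**Figure D1:**
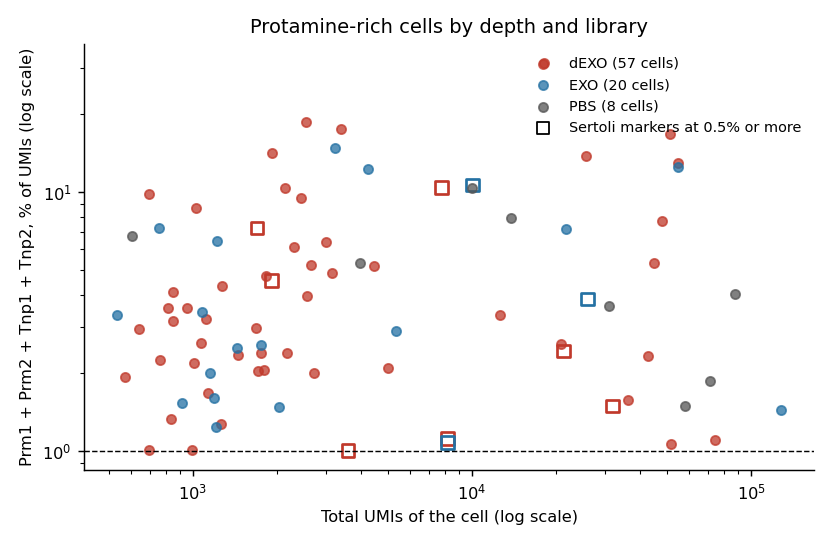
Each point is 1 protamine-rich cell, placed by its total UMIs (log scale) and by the percentage of UMIs in Prm1, Prm2, Tnp1 and Tnp2 (log scale), with dEXO, EXO and PBS in different colours. Open squares are the 7 dEXO and 3 EXO cells with at least 0.5% of UMIs in Sertoli markers, and the dashed line is the 1% limit. The 8 PBS cells include 4 of the deep cells with 12 of 12 round spermatid markers.

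The first question was how often such cells were caught after each injection. They made up 0.625% of kept cells in dEXO (0.474 to 0.809), 0.203% in EXO (0.124 to 0.313) and 0.152% in PBS (0.0655 to 0.299). The share in dEXO was 4.12 times that in PBS (1.96 to 9.996) and 3.08 times that in EXO (1.82 to 5.42). Between EXO and PBS the ratio was 1.34 (0.564 to 3.51), an interval that spans equal shares. The ratios depend on the limit: with 0.5% the dEXO over PBS ratio was 3.14 (1.76 to 6.01) and the EXO over PBS ratio 0.993 (0.5 to 2.06). With 5% they were 2.75 (0.912 to 11.1) and 0.935 (0.238 to 4.36), on 19, 7 and 4 cells, and the dEXO over PBS interval then spans equal shares. These intervals count cells only, and spread between animals was not measured.

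The share of cells with round spermatid markers differed between the libraries as well. Comparison cells were defined as kept cells with at least 3 of 12 round spermatid markers, under 1% of UMIs in the protamine and transition protein genes, and the same limits on Ptprc and the Leydig genes. There were 1146 of them in dEXO, 542 in EXO and 111 in PBS. Per comparison cell, protamine-rich cells stood at 0.690 of the PBS value in dEXO (0.328 to 1.68), at 0.512 of the PBS value in EXO (0.216 to 1.34) and at 1.35 times the EXO value in dEXO (0.798 to 2.37). All 3 intervals span 1, so a difference in protamine-rich cells per comparison cell was not detectable with these numbers of cells. The comparison cells also carried spermatocyte markers, at 1385 CPM in dEXO, 1044 CPM in EXO and 1184 CPM in PBS (CPM: a gene's part of the cells' summed UMIs, scaled to 1e6). Their Sertoli markers stood at 611.5, 389.4 and 171.8 CPM in the same order, taken without the protamine and transition protein genes. They are therefore a mixed group. How far free RNA, described below, added marker UMIs to them was not tested.

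The limit of 1% cut through a spread of cells, with 19 dEXO, 6 EXO and 6 PBS cells between 0.5 and 1%, and 13, 7 and 2 cells between 1 and 2%. Just inside it the lowest cells stood at 1.002% in dEXO, 1.08% in EXO and 1.49% in PBS. Just outside, the highest cells that met all other conditions stood at 0.960%, 0.787% and 0.643%, with 5, 12 and 4 UMIs of the 4 genes in dEXO, EXO and PBS. Each of dEXO and EXO lost 1 cell to a single Ptprc UMI. The dEXO one had 124977 UMIs, 5.87% of them in the 4 genes, all 12 round spermatid markers, 298 Smcp UMIs and 1 macrophage marker UMI. The EXO one had 26371 UMIs, 4.49% of them in the 4 genes, all 12 round markers and 0 macrophage marker UMIs. Admitting both gave shares of 0.636% in dEXO and 0.213% in EXO.

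The label was then checked on genes that did not choose the cells. Smcp encodes a cysteine-rich protein of the mitochondrial sheath around the sperm midpiece, and Odf1 a main protein of the outer dense fibres of the tail. Smcp had a UMI in 51 of 57 dEXO, 15 of 20 EXO and 8 of 8 PBS cells, and Odf1 in 39, 12 and 7 of them. In cells over the Leydig limit, which should lack both, Smcp was seen in 18.2% (dEXO), 11.1% (EXO) and 8.59% (PBS) of cells at median depths of 14412, 18111 and 32549 UMIs, and Odf1 in 10.2%, 4.91% and 3.99%. The comparison cells had a UMI of Smcp in 61.3% (dEXO), 65.3% (EXO) and 62.2% (PBS) and of Odf1 in 48.2%, 51.3% and 51.4%, at median depths of 9614.5, 7756.5 and 5987 UMIs against 2172, 1895.5 and 22355 UMIs in protamine-rich cells. A UMI of either gene therefore does not part protamine-rich from comparison cells. Their summed levels were higher in protamine-rich cells, 4.001-fold in dEXO, 2.97-fold in EXO and 2.68-fold in PBS. Of the 85 cells, 69 had at least 3 round spermatid markers and 82 had a UMI of each of the 4 rule genes. Both Odf1 and Smcp were missing from 4 dEXO and 2 EXO cells. The cells are therefore called by their rule, protamine-rich.

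Markers of other cell types differed widely in level. Endothelial and red blood cell markers were at 0 in EXO and PBS, where the upper bounds were 13.4 CPM each. Macrophage markers summed to 38.4 CPM in dEXO, 29.1 CPM in EXO and 14.5 CPM in PBS, with Adgre1, Csf1r, Cd68 and C1qa at 0 in all 3. C1qb was seen in all 3, at 20.8, 21.8 and 14.5 CPM against 1.68, 1.76 and 0.642 CPM in comparison cells. In CPM without the rule genes, the dEXO list stood 2.14-fold above comparison cells (log2 1.10, 0.45 to 1.68). In EXO and PBS, on 8 and 4 UMIs, the interval spanned equal levels. Spermatogonial markers summed to between 50.8 and 78.5 CPM with Zbtb16 at 0 in all 3. Leydig markers stood at 1241 CPM in dEXO, 364.1 CPM in EXO and 275.6 CPM in PBS, and 1 dEXO and 1 EXO cell held at least 0.5% of UMIs in them. Stromal markers summed to 389.1 CPM in dEXO, 105.6 CPM in EXO and 50.8 CPM in PBS, and 3 dEXO cells held at least 0.5% of UMIs in them. The list of 10 Sertoli markers stood at 2929.9 CPM in dEXO, 1216 CPM in EXO and 39.9 CPM in PBS, where Sox9 and Wt1 were at 0.

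The level of the 4 rule genes differed more between cells than between libraries. The median cell held 3.22% of its UMIs in them in dEXO, 3.13% in EXO and 4.68% in PBS, and the highest reached 31.3%, 14.7% and 10.3%. In dEXO 38 cells lay between 1 and 5% and 19 at 5% or more, in EXO 13 and 7, and in PBS 4 and 4. The EXO and PBS ranges lay within that of dEXO, where 4 cells were above every cell of the other libraries. Prm1 (chromosome 16, 10796326 to 10805839, GRCm38, minus strand) and Prm2 (chromosome 16, 10791380 to 10796134) lie side by side with Tnp2 (chromosome 16, 10787936 to 10788660), while Tnp1 is on chromosome 1 (73015074 to 73015909).

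Prm1 took a median of 0.954% of a cell's UMIs in dEXO, 1.18% in EXO and 1.66% in PBS, with highest cells at 12.7%, 5.73% and 3.998%. Prm2 stood at medians of 0.972%, 0.829% and 1.06%, in the same order of dEXO, EXO and PBS. The medians for Tnp1 were 0.513%, 0.558% and 1.01%, and for Tnp2 0.775%, 0.736% and 0.866%. In all 4 genes the dEXO cells spanned the values of the other libraries, as the plot of marker percentages per cell shows.

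**Figure D2:**
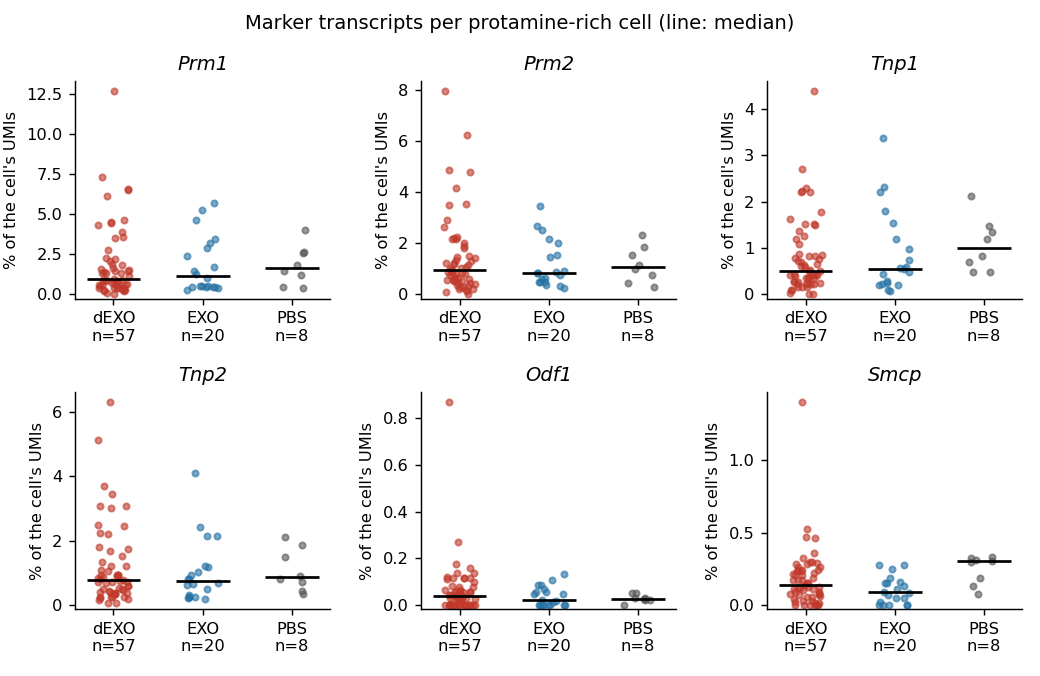
Percentage of each cell's UMIs (y axis) in the 4 genes of the rule and in Odf1 and Smcp, with 1 point per protamine-rich cell, libraries from left to right dEXO (57 cells), EXO (20) and PBS (8), and a line at the median. The libraries overlap in every panel, and the highest cell of each gene is a dEXO cell.

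Summed over cells, Smcp stood at 2461 CPM in dEXO (2339 to 2587), 1566 CPM in EXO (1421 to 1721) and 2673 CPM in PBS (2484 to 2873). The dEXO and PBS values lay close, with a log2 ratio of -0.12 (-0.25 to 0.01), and the EXO value was the low one (log2 ratio dEXO over EXO 0.65, 0.50 to 0.81). Odf1 stood at 449.9 CPM in dEXO, 502.5 CPM in EXO and 384.5 CPM in PBS. Its ratio was 0.23 for dEXO over PBS (-0.10 to 0.56) and -0.16 for dEXO over EXO (-0.46 to 0.15), and neither interval excludes equal levels. Smcp lies on chromosome 3 (92583867 to 92588997) and Odf1 on chromosome 15 (38219203 to 38226735).

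The make-up of the 4 rule genes differed between protamine-rich and comparison cells. Within the protamine-rich cells Tnp1 gave 15.3% of their UMIs in dEXO, 18.2% in EXO and 21.2% in PBS, whereas in the comparison cells it gave 56.4%, 62.6% and 69.2%. Prm1 gave 35.6% (dEXO), 33.6% (EXO) and 33.2% (PBS) in protamine-rich cells, but 10.8%, 11.2% and 4.01% in comparison cells. Tnp2 differed less, at 23.2%, 26.3% and 22.6% against 21.6%, 18.5% and 20.3%. In dEXO Tnp1 was at 29.4% in the 13 cells of 1 to 2%, 17.02% in the 25 cells of 2 to 5% and 14.1% in the 19 cells of 5% or more, while Prm1 was at 26.4%, 32.5% and 36.7%. In PBS, with 2, 2 and 4 cells in these bands, Tnp1 was at 28.7%, 18.7% and 19.1%, lower in both upper bands than in the lowest. In EXO Tnp1 was at 19.3%, 14.2% and 18.5% and Prm1 at 33.2%, 42.0% and 32.6%, so neither ran in 1 direction. The 4 fractions sum to 100%, so a rise of 1 is always met by a fall of others.

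Free RNA carried its own make-up. In cells over the Leydig limit, which should hold none of these transcripts, the 4 genes summed to 47.9 CPM in dEXO, 22.1 CPM in EXO and 19.8 CPM in PBS, and Tnp1 gave 25.3%, 32.8% and 24.1% of them. The comparison cells held 292.3, 408.3 and 495.7 CPM of the 4 genes, and their Tnp1 fractions lay above those of the free RNA in all 3 libraries. Protamine-rich cells held 63.5% of all UMIs of the 4 genes in the kept dEXO cells, 47.7% in EXO and 60.8% in PBS.

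**Figure D3:**
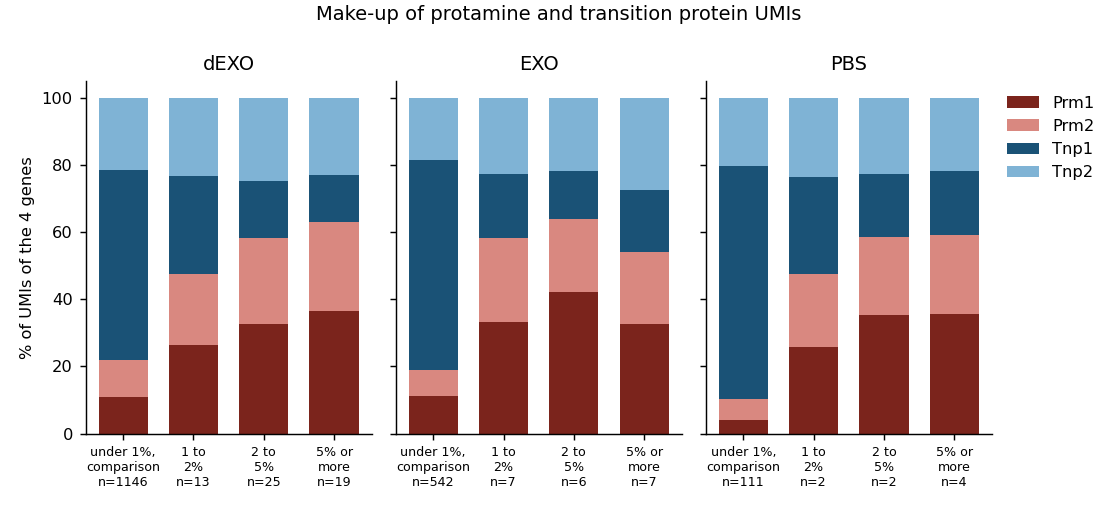
Percentage of the summed UMIs of Prm1, Prm2, Tnp1 and Tnp2 that each gene gave (y axis), for comparison cells with round spermatid markers and for protamine-rich cells in bands of 1 to 2%, 2 to 5% and 5% or more of UMIs in these genes, with 1 panel per library. Tnp1 gives over 56% in the comparison cells of each library and under 30% in every band.

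Prm1 and Tnp1 are known targets of the spermatid activator CREM, which binds sites like the cyclic AMP response element, so the 120 bases before their transcription starts were searched for that pattern. The pattern TGANNTCA, which reads alike on both strands, was found once before Prm1 and once before Tnp1, and not before Prm2, Tnp2 or Smcp. It occurred in 2346 of 32851 RefSeq promoters (7.14%) in windows of the same length. The matches are shown because they stand before the gene that led the 4 in the comparison cells (Tnp1) and the one that led in the protamine-rich cells (Prm1). Each stretch has 30 bases around the match, which is in capitals, from RefSeq on GRCm38.p6, on the minus strand.
Prm1, chr16:10796869-10796898: ctggtcctcttTGACTTCAtaattcctagg
Tnp1, chr1:73015975-73016004: gcaaaggttagTGATGTCAcaagagagctg
The matches lie 64 to 57 bases before the RefSeq start of Prm1 and 94 to 87 bases before that of Tnp1. The bounds of Prm1 given above reach past its RefSeq start, to 10805839, so the Prm1 stretch lies within those bounds. A match of letters is a description and not a bound site, and the absence of a match says nothing of the factor.

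The Sertoli marker UMIs sat in few cells. Sertoli cells are the nurse cells of the tubule, which enclose spermatids and take up the cytoplasm they shed. At least 0.5% of UMIs in the 10 Sertoli markers was found in 7 of 57 dEXO cells, 3 of 20 EXO cells and 0 of 8 PBS cells. With 8 cells, the 0 in PBS sets no useful limit on the share there. These cells held 94.3% of the Sertoli marker UMIs of the protamine-rich cells in dEXO and 94.9% in EXO.

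The Sertoli markers were unevenly spread over these cells. In dEXO 2 cells held 1522 of the 1726 marker UMIs, with 9 and 10 of the 10 markers, and the other 5 cells held 5 to 7 markers. In the 3 EXO cells 7 or 8 markers were seen. Sox9, a transcription factor that defines Sertoli cells, had a UMI in 4 of the 7 dEXO cells and 2 of the 3 EXO cells, and Wt1, another, in 4 and 3 of them. These genes belong to the list that chose the cells, so their levels restate the choice. Outside the list, in dEXO the testis cystatin Cst9 stood at 5113 CPM in the 7 cells and 43.8 CPM in the other 50. Gatm, an enzyme of creatine synthesis, stood at 1350.2 and 9.12 CPM. Both were picked from the genes named highest between libraries, a ranking that these cells weigh on, so they are no independent check. Bhmt, picked in the same way, ran the other way, at 26.2 and 339.2 CPM.

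Some spermatid transcripts were scarcer in these cells than in the other protamine-rich cells, and others were not. Round spermatid markers took a median of 0.0610% of UMIs in the 7 Sertoli-marked dEXO cells against 0.457% in the other 50, and 0.108% in the 3 EXO cells against 0.653% in the other 17. For each 1000 UMIs of the 4 rule genes the Sertoli-marked cells held 12.6 Smcp UMIs in dEXO and 13.0 in EXO, against 39.3 and 34.4 in the other cells of these libraries and 80.0 in PBS. Ldhc, the lactate dehydrogenase of germ cells, did so only in dEXO, at 25.3 against 77.2 UMIs per 1000, and stood at 106.7 against 106.8 UMIs in EXO. Meig1, a gene of the flagellum, stood at 43.0 against 82.2 UMIs in dEXO but at 149.4 against 126.8 UMIs in EXO. Tnp1 made up 15.5% of the 4 genes in the Sertoli-marked dEXO cells and 15.3% in the others. Prm1 made up 40.5% of the 4 genes in the Sertoli-marked dEXO cells and 44.7% in the EXO ones, against 35.4% and 31.5% in the others. Their median depth was 7792 UMIs in dEXO and 10060.0 UMIs in EXO, against 2030.0 and 1439 UMIs. Of these cells 2 of 7 in dEXO and 3 of 3 in EXO had doublet scores among the highest 712 of dEXO and 807 of EXO, and whether they were pairs of cells was not tested.

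**Figure D4:**
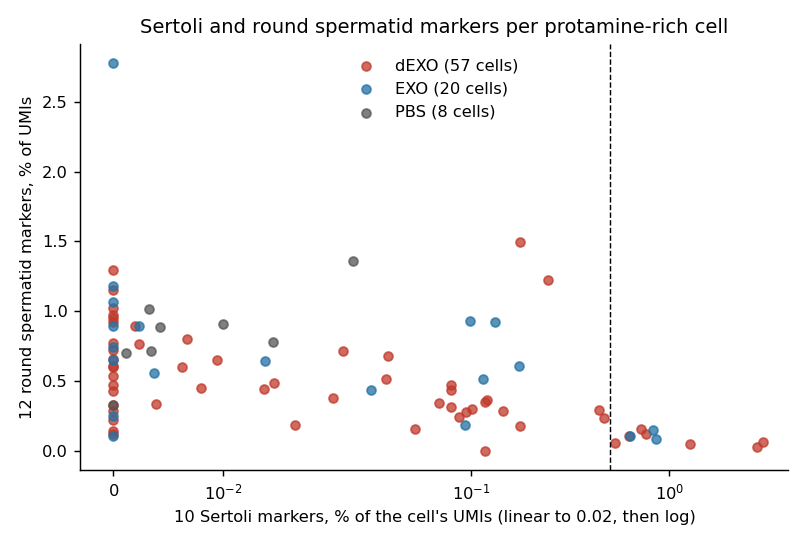
Each point is 1 protamine-rich cell, placed by the percentage of its UMIs in 10 Sertoli markers (x axis, linear to 0.02 and then logarithmic) and in 12 round spermatid markers (y axis), coloured by library. Right of the dashed line at 0.5% lie 7 dEXO, 3 EXO and 0 PBS cells, all with at most 0.154% of UMIs in round spermatid markers.

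The gene groups of spermatid differentiation were then set against the comparison cells. These values are a description, since both groups were chosen on their transcripts, and each list sum is in CPM without the 4 rule genes. In CPM with them, as for the single genes below, the median ratio of all genes with 50 or more UMIs in a library was -0.18 on the log2 scale in dEXO, -0.06 in EXO and -0.52 in PBS, with 45.8%, 48.5% and 31.9% of genes higher in protamine-rich cells, and the lists are read beside these values.

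Besides Tnp1, Tnp2, Prm1 and Prm2, the genes of nuclear condensation summed to a 3.92-fold higher level in dEXO, 3.07-fold in EXO and 3.17-fold in PBS, with 8 of 13 genes higher in each library. The 4 with most UMIs were all higher. Prm3, a protamine-like gene beside Prm2, stood at 2374, 2418 and 2640.4 CPM in protamine-rich cells of dEXO, EXO and PBS against 431.7, 646.7 and 820.0 CPM in comparison cells. Hils1, a spermatid linker histone, stood at 2117, 1711 and 3083 CPM against 691.9, 825.4 and 1113 CPM. Hmgb4, a chromatin protein of the testis, stood at 2089, 1649 and 2445 CPM against 284.9, 306.0 and 534.7 CPM. H1fnt, another spermatid linker histone, stood at 1225, 1023 and 1349 CPM against 89.3, 103.1 and 217.8 CPM. The other 5 genes, Hist1h1t, H2afb1, Brdt, Rnf8 and Hspa2, were lower. In PBS Hist1h1t, H2afb1 and Rnf8 rested on 1 UMI each in protamine-rich cells. There the log2 intervals of H2afb1 (-6.53 to 1.34) and Rnf8 (-7.53 to 0.29) spanned equal levels. Hspa2, a chaperone of meiotic and postmeiotic cells, stood at 262.6, 407.8 and 388.1 CPM against 915.7, 877.3 and 816.8 CPM.

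Lists of head shaping and protein turnover had higher sums, carried by part of their members. The manchette is the microtubule skirt that shapes the sperm head, and its list was 2.10-fold higher in dEXO, 1.97-fold in EXO and 2.04-fold in PBS, with 12, 12 and 13 of 20 genes higher. Tsga8, its member with most UMIs, stood at 1366, 1992 and 2419 CPM against 953.2, 1306 and 1392 CPM. Actrt2, an actin-related protein, stood at 1166, 1063 and 1407 CPM against 121.5, 153.6 and 302.5 CPM. Ccdc42 ran the other way, at 35.2, 65.5 and 65.3 CPM against 193.6, 207.9 and 200.7 CPM.

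Spermatid protein turnover genes were 2.06-fold, 1.75-fold and 1.84-fold higher in dEXO, EXO and PBS, with 10, 10 and 11 of 13 genes higher. Their member with most UMIs, the ubiquitin ligase gene Rnf151, stood at 2013, 2003 and 2546 CPM against 626.6, 782.7 and 1022 CPM. March10, another ubiquitin ligase gene, was lower, at 377.8, 378.7 and 438.9 CPM against 540.8, 566.9 and 544.6 CPM, and so was the testis proteasome gene Psma8, at 11.2, 7.28 and 3.63 CPM against 73.4, 53.5 and 77.5 CPM.

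Outer dense fibre and fibrous sheath genes, which build the accessory structures of the tail, were 1.58-fold, 1.37-fold and 1.51-fold higher, with 15, 15 and 17 of 20 genes higher. The member with most UMIs, Ropn1l, was not among these in dEXO and EXO, at 3482, 3189 and 4040.4 CPM against 3978, 4305 and 3915 CPM. Its relative Ropn1 stood at 1388, 1063 and 1687 CPM against 382.9, 435.2 and 620.2 CPM, and Odf2 at 1579, 1526 and 1966 CPM against 1037, 1053 and 1149.6 CPM.

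Other groups had lower sums. Axoneme genes, which build the motile core of the tail, stood 1.52-fold, 1.39-fold and 1.22-fold lower in dEXO, EXO and PBS, with 2, 2 and 1 of 20 genes higher. In PBS that sum lies above the median gene. Meig1, the axoneme member with most UMIs, stood at 5209.8, 6561 and 6532 CPM against 6947, 8354 and 7025 CPM. Oxidative phosphorylation genes were 1.54-fold, 1.55-fold and 1.64-fold lower, with 3, 2 and 1 of 20 genes higher. Genes of spermatid transcription and RNA storage were 1.54-fold, 1.35-fold and 1.32-fold lower, again above the median gene in PBS, with 3, 5 and 4 of 20 genes higher. Among these Fhl5, a coactivator of CREM, ran the other way, at 830.9, 655.4 and 877.7 CPM against 129.5, 162.7 and 261.6 CPM, and so did Paip2, a regulator of translation, at 885.4, 677.2 and 859.6 CPM against 389.0, 454.1 and 513.8 CPM. Spermatocyte markers were 4.19-fold, 2.41-fold and 3.996-fold lower, with 0 of 10 genes higher in any library. Acrosome genes stood within 1.21-fold of the comparison cells in all 3 libraries.

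Among protamine-rich cells some of the same groups, but not all, ran along the share of the rule genes in dEXO, where most cells were. Cells of 5% or more were set against cells of 1 to 5%, again in CPM without the 4 rule genes. Nuclear condensation genes were higher in cells of 5% or more in dEXO (14350.1 against 8028 CPM, log2 0.84) and in EXO (11598 against 8261 CPM, log2 0.49), and stood at 13266 against 12188 CPM in PBS (log2 0.12, -0.04 to 0.28). Outer dense fibre and fibrous sheath genes stood at log2 0.63 in dEXO, 0.20 in EXO and 0.15 in PBS, and manchette genes at 0.47, 0.24 and 0.18. Oxidative phosphorylation genes were lower in cells of 5% or more, at -0.56 in dEXO and -0.23 in EXO, and stood at -0.29 in PBS (-0.59 to 0.00). Sertoli markers also differed between these bands, at 524.5 against 5007 CPM in dEXO, 1057 against 1389 CPM in EXO and 153.8 against 29.1 CPM in PBS, and their part in these differences was not tested. Mitochondrial sheath genes ran in different directions, at 0.59 in dEXO, 0.02 in EXO and -0.29 in PBS. Axoneme genes stood at 0.09 in dEXO (0.01 to 0.17), -0.57 in EXO and -0.46 in PBS. Genes of spermatid transcription and RNA storage stood at 0.07 in dEXO (-0.05 to 0.18), -0.60 in EXO and -0.41 in PBS. Both lists, lower than in comparison cells in all 3 libraries, were thus not lower with the share in dEXO.

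The next comparison asked how protamine-rich cells differed after dEXO and PBS. Genes needed 50 UMIs over both libraries, and their UMIs were summed over cells. Of 3062 genes 343 were past 2-fold, which is 11.2%, with 249 higher (8.13%) and 94 lower (3.07%) in dEXO. The counting interval lay wholly past 2-fold for 141 higher genes (4.6%) and 3 lower ones (0.098%). The median gene stood at -0.17 on the log2 scale, and relative to it 304 genes were higher and 57 lower. Without the 7 Sertoli-marked dEXO cells, 143 of 2773 genes were past 2-fold (5.16%), with 85 higher and 58 lower. For the 5 genes named highest, between 70.3% and 97.8% of the dEXO UMIs lay in those 7 cells.

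The highest 5 by the bound of the interval nearest 0 were Cst12, Ctsl, Cst9, Clu and Sparc. Cst12 had 637 UMIs in dEXO and 1 in PBS, at 1019.9 against 3.63 CPM, and 97.8% of its dEXO UMIs lay in the 7 Sertoli-marked cells. Ctsl, the protease cathepsin L, had 288 UMIs in dEXO and 0 in PBS, which makes it at least 34.2-fold higher, and 91.0% of its UMIs lay in those cells. For Cst9, a second testis cystatin, that fraction was 94.2%, and for Clu 92.1%. Sparc, a secreted matrix protein, had 381 UMIs in dEXO and 3 in PBS. Of its dEXO UMIs 70.3% lay in Sertoli-marked cells, and the other 50 cells still held 206.1 CPM against 10.9 CPM in PBS. Sparc stood at 1841 and 3064 CPM in all other kept cells of dEXO and PBS.

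The lowest 5 in dEXO were Slc9b1, Tmc7, Mdm2, Hist1h2bp and Zfp607b, and leaving out the Sertoli-marked cells kept each of them past 2-fold. Slc9b1, a sodium and hydrogen ion exchanger of sperm, stood at 70.4 CPM in dEXO and 228.5 CPM in PBS (log2 -1.70, -2.29 to -1.12). Tmc7, a transmembrane channel-like protein, stood at 91.3 and 275.6 CPM (-1.59, -2.12 to -1.08). Mdm2, the ubiquitin ligase that restrains p53, stood at 116.9 and 315.5 CPM (-1.43, -1.90 to -0.97). Hist1h2bp, a histone H2B gene, stood at 209.7 and 518.7 CPM (-1.31, -1.66 to -0.95), and UMIs of this family can be split between near copies. Zfp607b, a zinc finger gene, stood at 97.7 and 268.4 CPM (-1.46, -1.97 to -0.95). Each was found in at least 16 of 57 dEXO cells and at least 6 of 8 PBS cells, and no PBS cell gave more than 37.9% of the UMIs. Relative to the median gene these values are smaller by 0.17. With each cell weighed equally, Slc9b1 stood at -0.99 and Zfp607b at -0.999, just inside 2-fold.

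Of the 12 lists of spermatid and cell function genes drawn below, acrosome genes stood lowest in dEXO. Lists of immediate early genes and of apoptosis and DNA damage genes are not drawn, with 1 and 2 genes measured here. They stood at 0.71 and -0.64 relative to the median gene. The acrosome is the enzyme-filled cap of the sperm head. Of 20 genes 16 could be measured, 13 of them lower in dEXO than in PBS, beside 62.6% of all genes, and 1 of them past 2-fold, beside 3.07% of all genes. The median was -0.57, which is -0.40 relative to the median gene, and -0.31 relative to it without the Sertoli-marked cells. Over 16 settings, the reported one among them, that relative median ran from -0.68 to -0.23. Some settings choose the same cells or cannot move a relative median, here and where settings are counted below. The counting interval of 11 genes lay below 0, beside 23.5% of all genes.

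Spaca1, a membrane protein of the acrosome that shapes it, stood at 672.4 CPM in dEXO (609.7 to 739.9), 1067 CPM in EXO (948.1 to 1196) and 1479.8 CPM in PBS (1339.7 to 1631). The 3 intervals do not overlap, and dEXO is the lowest. Izumo1, the sperm protein that binds the egg, stood at 164.9 CPM in dEXO, 356.8 CPM in EXO and 322.8 CPM in PBS (dEXO over PBS -0.97, -1.39 to -0.54). The highest members were Spata16 at 0.22 (-0.61 to 1.12) and Sppl2c at 0.16 (-0.33 to 0.67). In the comparison cells the acrosome list was also lowest in dEXO, at 5535 CPM, with 6519 CPM in EXO and 6675 CPM in PBS, so the order is not particular to protamine-rich cells. Several of these genes are also round spermatid markers, and that list was lower in dEXO for 12 of 12 genes, beside 62.6% of all genes (median -0.62).

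Oxidative phosphorylation genes ran the other way, with a median of 0.46 in dEXO over PBS (0.64 relative to the median gene) and 10 of 16 higher, beside 37.4% of all genes. Ndufa4 (4.33, 2.43 to 7.40) and Ndufa1 (3.24, 1.62 to 5.55), both listed under complex I, rested on 2 and 3 PBS UMIs, while Sdhb stood at -0.34 and Uqcrc1 at -0.25. Without the Sertoli-marked cells the relative median was 0.26, and 7 of 13 genes were higher. Heat shock genes stood at 0.34 relative to the median gene, and at 0.09 without those cells. The other 9 lists drawn below lay between -0.24 and 0.20.

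Between EXO and PBS fewer genes were past 2-fold than between dEXO and PBS when UMIs were summed over all protamine-rich cells. Of 2164 genes 131 were past 2-fold, which is 6.05%, with 79 higher (3.65%) and 52 lower (2.4%) in EXO. The interval lay wholly past 2-fold for 28 higher genes (1.29%) and 2 lower ones (0.0924%). Relative to the median gene, at -0.14, 101 were higher and 31 lower. Without the 3 Sertoli-marked EXO cells 89 of 2027 genes were past 2-fold (4.39%). Leaving out the deepest cell of each library gave 297 of 1433 genes (20.7%), with 64 higher and 233 lower. These counts therefore depend on 1 EXO cell that holds 46.7% of the UMIs and 1 PBS cell that holds 31.8%. Without the deepest cells dEXO over PBS stood at 14.3%. With each cell weighed equally EXO over PBS stood at 30.9% and dEXO over PBS at 26.1%, so their order depends on the setting.

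The highest 5 in EXO were Cst12, Gatm, Aard, Cst9 and Defb19. All of the 50 Gatm UMIs, of the first enzyme of creatine synthesis, lay in the 3 Sertoli-marked cells, with 0 in PBS (at least 13.1-fold higher). Defb19, a beta-defensin of the testis, stood at 1099.6 CPM in EXO and 61.7 CPM in PBS, with 92.4% of its EXO UMIs in those cells. The lowest 5 were Hsfy2, Wdfy1, Tcp10b, Fam81b and Etf1. Hsfy2, a heat shock factor-like gene of the testis, stood at 163.8 CPM in EXO and 467.9 CPM in PBS (-1.51, -2.04 to -1.01). A single cell gave 75.6% of its 45 EXO UMIs, and 83.3% of the 30 Fam81b UMIs in EXO. Etf1, the translation release factor, stood at 109.2 and 290.2 CPM (-1.41, -2.07 to -0.79). Acrosome genes were level between EXO and PBS, with 7 of 15 higher, beside 38.4% of all genes, and a median of -0.04.

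Between dEXO and EXO 246 of 3146 genes were past 2-fold, which is 7.82%, with 161 higher (5.12%) and 85 lower (2.7%) in dEXO. The interval lay wholly past 2-fold for 39 higher genes (1.24%) and 6 lower ones (0.191%). Without Sertoli-marked cells these were 173 of 2714 (6.37%), with 95 higher and 78 lower. Bhmt, a methyltransferase of homocysteine metabolism, was the highest at 301.0 CPM in dEXO and 21.8 CPM in EXO, but 1 cell gave 95.7% of its 188 dEXO UMIs. S100a10 (99.3 and 7.28 CPM), Clu (1076 and 284.0 CPM), Sparc (610.0 and 109.2 CPM) and the tight junction gene Cldn11 (110.5 and 14.6 CPM) followed, and Sertoli-marked cells held 62.9%, 92.1%, 70.3% and 97.1% of their dEXO UMIs.

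The lowest 5 in dEXO were Azin1, Mesp1, Fsip2, Cklf and Nxt1. Azin1, an inhibitor of the antizymes that limit polyamines, stood at 43.2 CPM in dEXO and 167.5 CPM in EXO (-1.95, -2.70 to -1.24). Fsip2, a partner of the fibrous sheath, stood at 163.3 and 451.5 CPM (-1.47, -1.86 to -1.08). A single EXO cell gave 74.2% of its 124 EXO UMIs, and without the deepest cells the value was -0.28. Mesp1 stood at 78.5 and 243.9 CPM, Cklf at 43.2 and 145.6 CPM, and Nxt1, a factor of mRNA export, at 32.0 and 112.9 CPM. For the last 2 genes single cells weighed heavily too, with 60.0% of the 40 Cklf UMIs and 61.3% of the 31 Nxt1 UMIs of EXO in 1 cell each.

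The acrosome list was lower in dEXO than in EXO too, with 15 of 16 genes lower, beside 54.8% of all genes, and a median of -0.47 (-0.41 relative to the median gene, -0.25 without Sertoli-marked cells, -0.70 to -0.19 over 16 settings). Izumo1 (-1.11, -1.53 to -0.70) and Zpbp2, a protein of the acrosomal matrix (-0.97, -1.54 to -0.40), were the lowest, and Fam170b (0.01) and Sppl2c (-0.14) the highest. Spermatid protein turnover genes stood highest, at 0.37 relative to the median gene with 9 of 10 higher (-0.003 to 0.70 over 16 settings). Genes of spermatid transcription and RNA storage stood at -0.34 with 11 of 14 lower (-0.40 to 0.41). Nuclear condensation genes stood at 0.31 relative to the median gene with 6 of 9 higher, beside 45.2% of all genes, between 0.05 and 0.32 over 17 settings. Within dEXO and within EXO the sum of this last list also rose with the share of the rule genes, as given above. Tssk6 (0.35, 0.09 to 0.62) and Hmgb4, a testis chromatin protein (0.34, 0.19 to 0.50), were the highest, and Hspa2 (-0.64, -0.99 to -0.28) and Chd5, a remodeller of spermatid chromatin (-0.26, -0.66 to 0.15), the lowest.

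**Figure D5:**
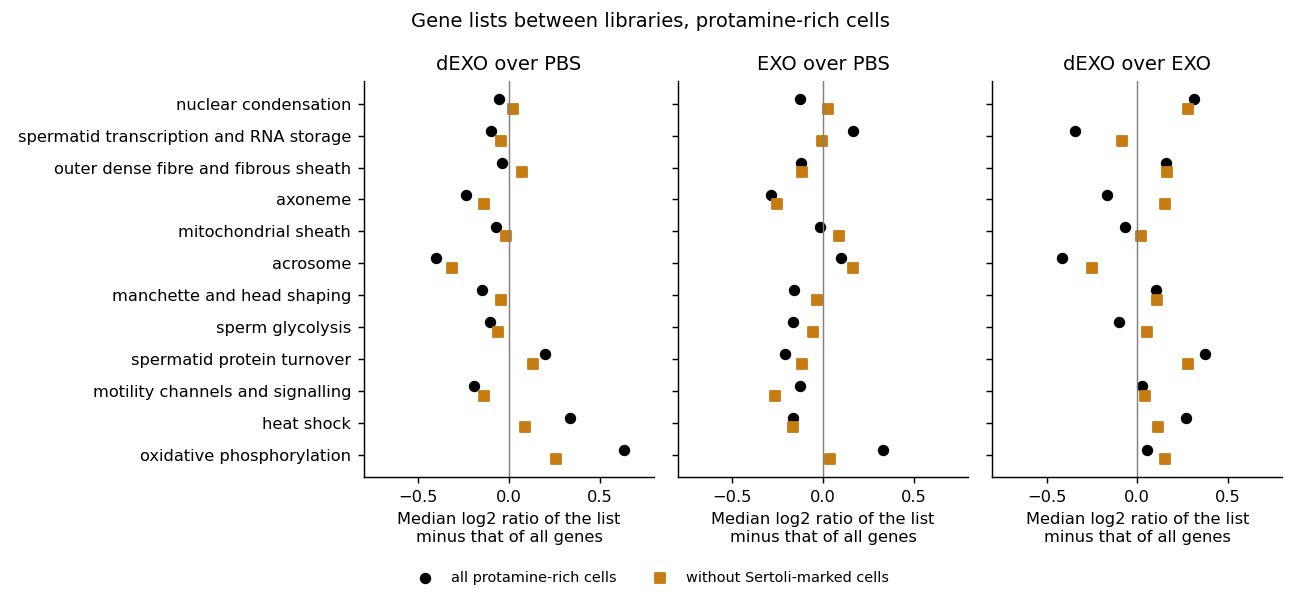
Median log2 ratio of each gene list minus the median of all genes measured (x axis) for 12 gene lists, with 1 panel per pair of libraries, over all protamine-rich cells (circles) and without Sertoli-marked cells (squares). The acrosome list lies lowest in both panels with dEXO on top, at -0.40 over PBS and -0.41 over EXO, and the oxidative phosphorylation list at 0.64 over PBS moves to 0.26 without the Sertoli-marked cells.

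The genes most restricted to protamine-rich cells were ranked by the lowest of the 3 library ratios to all other kept cells. This is a description, since the rule chose these cells by transcripts that rise with these genes. Hmgb1-rs17, a pseudogene of the chromatin protein gene Hmgb1 on chromosome 8 (33484196 to 33485167), came first, at 136.1 CPM in dEXO, 69.2 CPM in EXO and 87.0 CPM in PBS, against 0.189, 0.0989 and 0.145 CPM in all other cells. Its UMIs lay in 23, 8 and 6 cells, and counts of such copies can be split between loci. 1700080E11Rik, a protein-coding gene on chromosome 9 (105143342 to 105145092), stood at 204.9, 87.4 and 83.4 CPM, against 0.379, 0.165 and 0.0415 CPM.

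Nrg3os, 1700029B22Rik, Defb33, Gm498, 1700009J07Rik, Ttc24, 4930479H17Rik and Gm13324 followed. Defb33, a beta-defensin, stood at 145.7, 87.4 and 76.2 CPM in dEXO, EXO and PBS, and Ttc24, a tetratricopeptide repeat protein, at 216.1, 134.7 and 137.8 CPM. Nrg3os, 1700029B22Rik and Gm13324 are antisense genes in the annotation, and no source used here says whether the counting was stranded, so reads of the partner gene may be among theirs. None of the 10 genes was above 1.3 CPM in the comparison cells of any library, where Ttc24 in EXO was the highest at 1.297 CPM. All 10 were found in all 3 libraries.

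Genes whose share in a cell went along with that of the rule genes were named by the mean Spearman correlation over cells in the 3 libraries (57, 20 and 8 cells), over 7676 genes. The cells of a library differ widely in depth, and each cell's shares have 1 total in common, so these values are descriptions. 1700027A15Rik stood highest, with rho of 0.67 in dEXO, 0.76 in EXO and 0.57 in PBS. Col20a1, a collagen gene (0.59, 0.67 and 0.52), and Gm10638 (0.46, 0.53 and 0.76) followed. H1fnt, the linker histone, was 1 of the 10 (0.33, 0.39 and 0.79), and so was Tfam, which packs mitochondrial DNA (0.28, 0.35 and 0.88). The most opposite were Fndc3a, needed for the adhesion of spermatids to Sertoli cells (-0.32, -0.49 and -0.89), and Ccnt1, a cyclin of transcription elongation (-0.14, -0.54 and -0.94). Fndc3a was seen in only 14, 2 and 4 cells, and Ccnt1 in 5, 3 and 4, so these values rest on sparse counts.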

How the data were processed

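The authors deposited raw UMI counts per gene and cell barcode for 3 droplet 3' libraries of mouse testis, 1 per group. Per the file headers the counts come from Cell Ranger 5.0.1, and per the submitters' processing notes from Cell Ranger and Seurat on GRCm38. Strand settings and doublet removal are not given in the sources used here. The tissue label names testis, whereas the extraction protocol speaks of aorta. The files list 55450 genes and 9760 (dEXO), 10228 (EXO) and 5514 (PBS) barcodes, with 96655663, 91787154 and 97253862 UMIs.

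Cells were filtered and chosen as the report states. UMIs were summed over the chosen cells of a library, expressed as CPM, and compared as log2 ratios with exact conditional binomial intervals. Shares have Clopper-Pearson intervals and levels exact Poisson intervals, all at 95% and covering counting error only. A gene with 0 UMIs was set at a floor of 3 counts per library. Genes entered a comparison with 50 or more UMIs over both libraries. The text names, per pair of libraries, the 5 highest and 5 lowest genes by the interval bound nearest 0. Left out of these were the 4 rule genes, mitochondrial, ribosomal protein, haemoglobin and clone-named genes, and genes under 0.25 of their CPM in all other cells of the library where they are higher. Of a list it names members among the 4 with most UMIs (for nuclear condensation the 4 after the rule genes) and, for a pair of libraries, the 2 highest and 2 lowest. Other list members, among them Hist1h1t, H2afb1, Brdt, Rnf8, Hspa2, Ccdc42, Psma8, Sox9 and Wt1, were named after their values were seen. With 1 library per group no test was run.

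The members, the gene lists and the markers were chosen with earlier results of these data known, and the names of the comparison cells rest on markers. The list symbols Gsg2 and Marchf10 had no entry in the files used. Scrublet called 0, 2 and 4 cells in dEXO, EXO and PBS, which was too few to use, so no doublets were removed. Alternatives changed the cell rule, the gene filter, the weighting, the depth and the cells left out. The log2 ratio and its interval were tested on simulated counts per gene. That simulation held no cells, so it does not cover the weight of single deep cells. Tools were scanpy 1.11.5, scipy 1.17.1 and pandas 2.3.3, run in Python 3.11.15, and figures used matplotlib 3.10.9. Promoter sequences are those of RefSeq.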

Additional observations from a re-analysis of the deposited data

How the results depend on the processing

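No paired analysis was possible because each group has 1 library. The share of protamine-rich cells in dEXO was 0.833% with a limit of 0.5% on the rule genes and 0.208% with a limit of 5%, the share in EXO 0.264% and 0.0710%, and that in PBS 0.266% and 0.0759%. The number of genes past 2-fold moved by over 1.5 times under several settings. For dEXO over PBS it was 192 of 1174 genes with cells of 5% or more (16.4%), 214 with the highest doublet scores removed, 109 with somatic-marked cells left out, 17 with cells thinned to 1000 UMIs, 800 with each cell weighed equally, 41 with genes of 200 UMIs, and 143 without Sertoli-marked cells, the last chosen after seeing the data. For EXO over PBS it was 79 of 445 genes with cells of 5% or more (17.8%), 3 thinned, 669 with equal weights, 12 with genes of 200 UMIs, and 297 without the deepest cells, again chosen after seeing the data. For dEXO over EXO it was 141 with somatic-marked cells left out, 11 thinned, 951 with equal weights and 34 with genes of 200 UMIs. Thinning left 93, 15 and 121 genes to measure, which bounds its counts. Fewer genes were also measured with cells of 5% or more, where the percentages past 2-fold were higher than in all cells, and with genes of 200 UMIs.

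Of the named genes, 4 changed sign. Clu in dEXO over EXO stood at -0.88 in cells of 5% or more. Bhmt in dEXO over EXO stood at -1.19 with somatic-marked cells left out, on 5 UMIs in each library. Etf1 in EXO over PBS stood at 0.72 and Fsip2 in dEXO over EXO at 0.24 after thinning. The cause was not tested. Among single genes and lists, 842 other values were counted as kept, 50 values of single genes fell inside 2-fold and 82 list medians moved. Some of the kept values could not have changed. The limit of 200 UMIs per gene leaves each of its 30 single-gene ratios as it was. Cells of 5% or more were counted under 2 settings that choose the same cells. The number kept is therefore no measure of stability. A further 36 single-gene values had too few UMIs to be given. Kept means, for a single gene, the same direction and still past 2-fold. For a list median it means a small shift on the log2 scale, whatever its sign. With 8 PBS cells, and 1 cell holding 46.7% of the EXO UMIs, depth limits every comparison of genes.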
